A study of Rattus norvegicus with 10 samples.

Results

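The miR-99/100 and miR-125 families are 5 mature miRNAs of the 723 listed in 10 small RNA libraries of rat tissue. They are rno-miR-99a-5p, rno-miR-99b-5p, rno-miR-100-5p, rno-miR-125a-5p and rno-miR-125b-5p, written without the prefix from here on. The members were chosen by name, and where a miRNA was listed once for each hairpin its largest read count was taken. All 5 passed the filter on low counts and are among the 359 miRNAs tested. The study asked how needle stimulation of subcutaneous tissue acts in rats with collagen-induced arthritis (CIA), a model in which immunization with type II collagen inflames the joints. All animals of the groups compared here were female Wistar rats with CIA, and each group has 2 libraries. CIA_B was sampled before any therapy. MS_E was sampled at 1 h and MS_A at 34 days of therapy by mechanical stimulation, which the labels call AP. A thin needle was inserted and twirled, and the paper describes this as repeated every other day. PLA_E and PLA_A were sampled at the same times in rats given saline weekly by peritoneal injection as placebo. The groups at 34 days were also later in the disease than CIA_B, which their comparison with CIA_B cannot separate from therapy. The labels give the tissue as muscle from beneath the skin, while the study's methods describe subcutaneous tissue that includes muscle.

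A miRNA is cut from the stem of a hairpin transcript, and the arm that is kept guides repression of messages that pair with its seed, bases 2 to 8. The miR-99/100 family is known for repressing mTOR, the kinase that couples growth to nutrients, and the miR-125 family is the vertebrate relative of worm lin-4, a timing gene of development. In mammals the families are encoded together with let-7, another timing miRNA, in clusters of 3 hairpins.

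The mature sequences are shown because the comparisons below turn on which miRNAs share a seed and which share a cluster. They come from RefSeq on the build GRCr8, are written 5′ to 3′, and carry the seed in capitals.
miR-99b-5p: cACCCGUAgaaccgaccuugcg
miR-100-5p: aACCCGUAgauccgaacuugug
miR-125a-5p: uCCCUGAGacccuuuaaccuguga
miR-125b-5p: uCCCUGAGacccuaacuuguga
miR-351-5p: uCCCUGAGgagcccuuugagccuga
let-7e-5p: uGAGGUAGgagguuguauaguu

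miR-99b-5p and miR-100-5p have the same length and the same seed and differ by 4 substitutions, C1A, A11U, C16A and C21U, counted from the 5′ end with the base of miR-99b-5p first. miR-125a-5p and miR-125b-5p share their first 13 bases. The seed of the miR-125 family occurs in 3 of the 693 mature miRNAs of the sequence table, the last being miR-351-5p of the X chromosome. On GRCr8 the mature miR-99b-5p lies at chr1:67350070-67350091 and miR-125a-5p at chr1:67350689-67350712, both on the plus strand, with let-7e between them at chr1:67350243-67350264. From the first to the last hairpin this cluster spans 696 bases. miR-100-5p lies at chr8:50798307-50798328 on the plus strand, in a cluster of 51828 bases with let-7a-2 and the hairpin miR-125b-1. The third cluster, of 45268 bases on chromosome 11, holds miR-99a, let-7c-1 and miR-125b-2, whose miR-125b-5p lies at chr11:29732588-29732609 on the plus strand. Both miR-125b hairpins give the same mature miRNA, so its reads cannot be assigned to either cluster.

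Libraries held from 1513799 to 8926170 reads on miRNAs, with the smallest in CIA_B. Levels are given as reads per 1000000 reads on all miRNAs (cpm), scaled by TMM factors, which correct for library composition, of 0.675 to 1.41. The members had from 1118 to 30829 reads in a library, so counting error is small beside the difference between libraries. In every group 1 library had far less miR-1-3p, the muscle miRNA, than the other, with a log2 difference of -3.37 to -2.37. The library with more was replicate 1 in CIA_B, PLA_E and PLA_A and replicate 2 in MS_E and MS_A. The other muscle miRNAs did not all follow this division. miR-206-3p was lower in the library with less miR-1-3p in all 5 groups, but miR-133a-3p was higher there in PLA_E (118939 against 70505 cpm) and PLA_A (139360 against 89171 cpm) and nearly level in MS_A (122982 against 128713 cpm). These 2 were named after their values were seen. The 4 skeletal muscle miRNAs listed as markers were detected in all libraries and summed to between 83894 and 268478 cpm. Smooth muscle markers, 2 of 2 detected, summed to 26942 to 54152 cpm in the libraries with more miR-1-3p and to 68231 to 101412 cpm in those with less. The labels do not say that the 2 libraries of a group came from separate animals, so the p-values measure only the spread between these libraries. In bulk tissue fewer cells of a type and less of a miRNA per cell cannot be told apart.

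Together the members held from 0.632% to 1.13% of the reads on miRNAs. With the largest count per miRNA the miR-99/100 family took the larger part in all 10 libraries, 2.27 and 4.04 times the miR-125 family in CIA_B and 1.23 to 2.48 times after therapy. With counts summed over hairpins, the order turned in MS_E replicate 2 (0.338% against 0.365% of reads) and in PLA_A replicates 1 (0.427% against 0.478%) and 2 (0.418% against 0.460%). The 2 rows of miR-125b-5p differed by at most 0.716% in a library, so its sum counts nearly the same reads at both hairpins and overstates it. With the largest count miR-99b-5p was the most abundant of the 5 in every library, but with summed counts miR-125b-5p lay above it in both MS_E and both PLA_A libraries and in MS_A replicate 2. With the largest count, the lead of miR-99b-5p over the next member was 2.55-fold and 2.77-fold in CIA_B, but in MS_E replicate 2 it led by only 1.00-fold, with 1386 cpm against 1380 cpm of miR-125a-5p. miR-100-5p was the least abundant in 9 of 10 libraries with either count. In CIA_B replicate 1 the lowest was miR-125b-5p, or miR-125a-5p with summed counts.

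**Figure D1:**
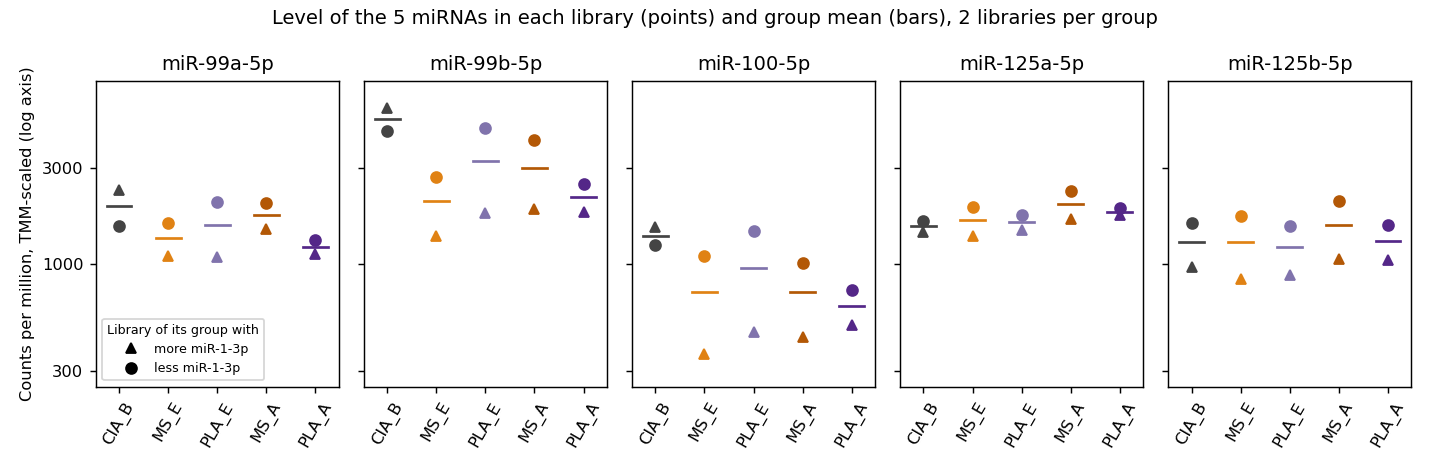
Level of each of the 5 miRNAs in cpm on a log axis, for the 2 libraries of each group (points) and their mean (bars); triangles are the library of the group with more miR-1-3p. miR-99b-5p and miR-100-5p are high in both CIA_B libraries and spread widely in the groups after therapy, while miR-125a-5p stays between 1380 and 2292 cpm.

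miR-99b-5p, of the miR-99/100 family, was highest before therapy. It measured 5908 and 4533 cpm in CIA_B. After stimulation it measured 2697 and 1386 cpm in MS_E and 4109 and 1867 cpm in MS_A. After placebo it measured 1781 and 4680 cpm in PLA_E and 1812 and 2496 cpm in PLA_A. Of the 8 libraries after therapy 7 lay below both CIA_B libraries, and the exception was PLA_E replicate 2. The share of all tested miRNAs with at least 7 of the 8 below was not counted, so this number has no background. The groups did not overlap with CIA_B in MS_E, MS_A and PLA_A. Both libraries were below both CIA_B libraries for 13.1% of all tested miRNAs in MS_E, 10.9% in MS_A, 9.47% in PLA_E and 15.6% in PLA_A. The group means ran from 5221 ± 972 cpm (SD, n = 2) in CIA_B over 3230 ± 2049 in PLA_E, 2988 ± 1585 in MS_A and 2154 ± 484 in PLA_A to 2041 ± 927 in MS_E. Neighbours in this order differed by less than the larger of their SDs.

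miR-100-5p, on another chromosome but with the same seed, had the same shape at a lower level. It measured 1523 and 1245 cpm in CIA_B. The libraries after stimulation gave 1103 and 361 cpm in MS_E and 1017 and 437 cpm in MS_A. Those after placebo gave 465 and 1457 cpm in PLA_E and 501 and 748 cpm in PLA_A. Again 7 of 8 libraries after therapy were below both CIA_B libraries, with PLA_E replicate 2 as the exception and no background share counted. Its groups did not overlap with CIA_B in MS_E, MS_A and PLA_A. The 2 libraries of a group differed up to 3.14-fold, in PLA_E, against 1.22-fold in CIA_B, so the order of the 4 groups after therapy is not resolved.

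Sums of some marker lists also differed between CIA_B and the libraries after therapy, while those of other lists overlapped. The 2 slow muscle fibre miRNAs summed to 826 and 585 cpm in CIA_B and lay below both in 7 of 8 libraries after therapy, at 56.5 to 403 cpm, with 1025 cpm in PLA_A replicate 1. The 6 epithelial miRNAs summed to 33.8 and 70.6 cpm in CIA_B, with 2 of them at 0 in replicate 1, and lay above both in 7 of 8 libraries, at 78.6 to 434 cpm. The 2 erythroid miRNAs detected, of 3 listed, summed to 20.8 and 14.7 cpm in CIA_B and to 21.2 to 84.4 cpm in 7 of 8 libraries. For the epithelial and erythroid sums the exception was PLA_E replicate 2, as for miR-99b-5p and miR-100-5p, at 57.4 cpm with 1 epithelial miRNA at 0 and at 15.2 cpm. The 4 leukocyte miRNAs summed to 688 and 585 cpm in CIA_B and were above both in 7 of 8 libraries, at 729 to 12753 cpm, with 587 cpm in MS_E replicate 1. The remaining lists overlapped. Skeletal muscle summed to 241022 and 91561 cpm in CIA_B and 83894 to 268478 cpm after therapy, and smooth muscle to 54152 and 73520 against 26942 to 101412 cpm. Endothelial miRNAs gave 14624 and 8493 against 4274 to 14716 cpm, and fibroblast and mesenchyme 1524 and 3494 against 1417 to 2927 cpm. The part of the differences in marker sums in those of miR-99b-5p and miR-100-5p was not tested.

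miR-99a-5p, the third member of that family, varied less. It measured 2318 and 1553 cpm in CIA_B, 1592 and 1103 cpm in MS_E, and 1093 and 2032 cpm in PLA_E. At 34 days it measured 2010 and 1486 cpm in MS_A and 1119 and 1312 cpm in PLA_A. In cpm its libraries did not overlap only in PLA_A, which lay below CIA_B and below MS_A. As a share of reads PLA_A (0.1473% and 0.1258%) overlapped with MS_A (0.1357% and 0.1725%). By that measure MS_E (0.1155% and 0.1373%) also lay below CIA_B (0.177% and 0.1654%). In MS_A against PLA_A, 7.52% of tested miRNAs were higher without overlap.

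miR-125a-5p was the steadiest member in TMM-scaled cpm. It measured 1449 and 1635 cpm in CIA_B, 1916 and 1380 cpm in MS_E, and 1479 and 1750 cpm in PLA_E. At 34 days it measured 2292 and 1666 cpm in MS_A and 1747 and 1889 cpm in PLA_A. Its highest library was 1.66 times its lowest, and only 2.23% of the tested miRNAs had a smaller SD of log2 cpm over the 10 libraries. In cpm both groups at 34 days lay above both CIA_B libraries without overlap, as did 16.2% of the tested miRNAs in MS_A and 20.9% in PLA_A. As a share of reads, miR-125a-5p ran from 0.1106% to 0.23%, and miR-99a-5p had the narrower range, from 0.1155% to 0.1977%. By that measure MS_A replicate 1 lay below CIA_B replicate 2 for miR-125a-5p (0.1547% against 0.1741%).

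miR-125b-5p, which shares the seed of miR-125a-5p, measured 967 and 1597 cpm in CIA_B, 1738 and 846 cpm in MS_E, and 890 and 1549 cpm in PLA_E. At 34 days it measured 2054 and 1059 cpm in MS_A and 1051 and 1563 cpm in PLA_A. Every group overlapped every other group it was compared with, and the group means stayed between 1219 ± 466 cpm in PLA_E and 1557 ± 704 cpm in MS_A (SD, n = 2).

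The design compares each group after therapy with CIA_B, and stimulation with placebo at each time. The 4 comparisons with CIA_B share its libraries, so they are not independent of each other. The thresholds of the study were used for calls, that is a fold change above 2 with a p below 0.05 before adjustment, and adjusted p-values are over all 359 miRNAs tested. By edgeR's quasi-likelihood test none of the 5 members was called in MS_E against CIA_B, where 6.41% of all tested miRNAs were. None was called in MS_A, in PLA_E or in PLA_A against CIA_B, where the calls among all miRNAs were 1.11%, 0.557% and 6.96%. No miRNA in the whole table had an adjusted p under 0.05 in any of these comparisons by edgeR with all libraries. Without MS_E replicate 2 there were 5 in MS_E, and without PLA_A replicate 2 there was 1 in PLA_A. DESeq2 gave 6 in MS_E and 2 in PLA_A, and limma-voom gave 0. No member was among any of these. For members, 0 of 5 had an unadjusted p under 0.05 in each of the 4 comparisons, while with limma-voom and with DESeq2 miR-99b-5p was called in MS_E against CIA_B.

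For miR-99b-5p the fitted log2 fold change was -1.35 ± 0.61 (SE) in MS_E against CIA_B with an adjusted p of 0.722 by edgeR. In PLA_A it was -1.28 ± 0.61 with an adjusted p of 0.543 by edgeR. The limma-voom fit of only the 4 libraries and the DESeq2 fit called it in PLA_A as well, and the former also called miR-100-5p there at -1.17. MS_A and PLA_E gave -0.81 and -0.69, with adjusted p-values of 0.994 in both. These 2 values moved with single libraries, to -1.44 and -0.41 in MS_A without its replicates 1 and 2, and to -0.16 and -1.53 in PLA_E without its replicates 1 and 2. For miR-100-5p the log2 fold changes were -0.92 in MS_E, -0.93 in MS_A, -0.53 in PLA_E and -1.15 in PLA_A, each with an SE of 0.70 to 0.71. With 1 library left out they ran from -1.99 to -0.33 in MS_E and from -1.62 to -0.51 in MS_A. The ranges were -1.55 to 0.074 in PLA_E and -1.56 to -0.86 in PLA_A. Those of miR-99a-5p ran from -0.67 in PLA_A to -0.15 in MS_A. With TMM factors and all libraries the 12 values of the miR-99/100 family were below 0, while the miR-125 family ran from -0.07 for miR-125b-5p in PLA_E to 0.36 for miR-125a-5p in MS_A. The sign of miR-125b-5p changed with the scaling, and that of miR-99a-5p in PLA_E turned to 0.041 without TMM factors. It also turned for miR-99a-5p in MS_A without CIA_B replicate 1 (0.072), and in PLA_E without PLA_E replicate 1 for miR-99a-5p (0.069) and miR-100-5p (0.074). Leaving out MS_E replicate 1 gave miR-99b-5p -1.97 and miR-100-5p -1.99 in MS_E against CIA_B, both then called, with adjusted p-values of 0.883 by edgeR. Leaving out PLA_E replicate 1 gave a call of miR-99b-5p in MS_E and in PLA_A at nearly the same values, -1.35 and -1.28. The median over all tested miRNAs was between 0.06 and 0.11 in the same comparisons.

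By edgeR on all libraries, with TMM factors, the filter on low counts and group as the only term, 1 member was called. That call came from pooling the 8 libraries after therapy against CIA_B. There miR-99b-5p had a log2 fold change of -1.03 ± 0.45, a 2.05-fold lower level, and an adjusted p of 0.932 by edgeR. Among all tested miRNAs 1.67% were called lower in this comparison and 4.18% in either direction. The call ended without TMM factors and in 6 of the 10 fits that left out 1 library (either CIA_B library, MS_E replicate 2, PLA_E replicate 1, MS_A replicate 2 or PLA_A replicate 1), in which the value was between -1.21 and -0.90. miR-100-5p was also called, at -1.16, without MS_E replicate 1. With all libraries it had -0.88 ± 0.52, with an adjusted p of 0.932 by edgeR, and miR-99a-5p had -0.41. For miR-125a-5p and miR-125b-5p the values were 0.19 and 0.06. In the test of any difference over the 5 groups the smallest p of a member by edgeR was 0.229, for miR-99b-5p, with an adjusted p of 1.00. In that test 4.18% of all miRNAs had a p under 0.05.

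Stimulation and placebo were compared at each time. None of the members was called in MS_E against PLA_E or in MS_A against PLA_A, where 3.9% and 1.95% of all miRNAs were. miR-99b-5p had log2 fold changes of -0.66 ± 0.60 at 1 h and 0.47 ± 0.60 at 34 days, with 0.22 at 1 h without PLA_E replicate 2 and -0.17 at 34 days without MS_A replicate 1. miR-99a-5p had the largest value at 34 days, 0.52 ± 0.46, with an adjusted p of 0.999 by edgeR. The change from 1 h to 34 days did not differ detectably between the arms. In the interaction term none of the members was called, against 3.34% of all miRNAs, and miR-99b-5p had 1.13 ± 0.85 with an adjusted p of 0.993 by edgeR. With 1 library left out this value ran from 0.21, without PLA_E replicate 2, to 1.70, without MS_E replicate 1, and it was 0.43 without MS_A replicate 1, 0.74 without MS_E replicate 2 and 1.67 without PLA_E replicate 1.

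**Figure D2:**
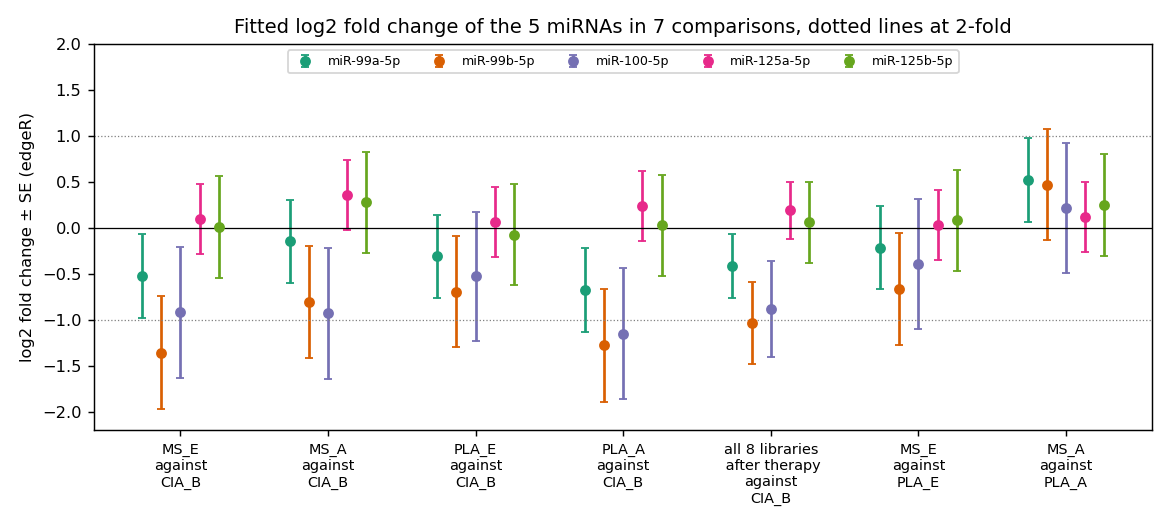
Fitted log2 fold change with its standard error for the 5 miRNAs (colours) in 7 comparisons, with dotted lines at a 2-fold change. With TMM factors and all libraries the 3 members of the miR-99/100 family lie below 0 in every comparison with CIA_B, and both miR-125 members lie within 0.36 of 0 there.

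The 2 libraries of a group were compared along the division by miR-1-3p, which was drawn after seeing the data. With TMM factors, in each of the 4 groups after therapy all 5 members were higher in the library with less miR-1-3p. This holds for 19% of all tested miRNAs apart from miR-1-3p. The factors were 0.675 to 0.973 in those libraries and 1.16 to 1.41 in the others. As a share of reads, without these factors, miR-125a-5p was lower in each library with less. It held 0.139% against 0.172% in MS_E, 0.170% against 0.209% in PLA_E, 0.155% against 0.193% in MS_A and 0.181% against 0.23% in PLA_A. miR-99a-5p was lower there except in PLA_E, while miR-99b-5p, miR-100-5p and miR-125b-5p stayed higher. In cpm the fold for miR-100-5p was 3.05 in MS_E, 3.14 in PLA_E, 2.33 in MS_A and 1.49 in PLA_A. For miR-99b-5p it was 1.95, 2.63, 2.20 and 1.38 in the same order. In CIA_B the 3 members of the miR-99/100 family were lower in cpm in the library with less miR-1-3p. They were at 0.67, 0.77 and 0.82 times for miR-99a-5p, miR-99b-5p and miR-100-5p, while the miR-125 members were higher. Here the TMM factor was 1.07 in the library with less and 0.763 in the other. As a share of reads miR-99a-5p was also lower (0.165% against 0.177%). By that measure miR-99b-5p (0.483% against 0.451%) and miR-100-5p (0.133% against 0.116%) were higher. In cpm, 5.03% of the tested miRNAs were higher in all 4 groups after therapy and lower in CIA_B in this way.

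In cpm the difference from CIA_B was therefore unequal on either side of this division, by an amount that depended on the TMM factors. Between libraries with more miR-1-3p, miR-99b-5p differed from CIA_B by -2.09 in MS_E, -1.66 in MS_A, -1.73 in PLA_E and -1.70 in PLA_A on the log2 scale of cpm. Between libraries with less, the differences were -0.75, -0.14, 0.05 and -0.86. miR-100-5p ran from -2.08 to -1.60 on the first side and from -0.73 to 0.23 on the second. As a share of reads, miR-99b-5p on the first side was 0.4511% in CIA_B, 0.1725% in MS_E, 0.2167% in MS_A, 0.2519% in PLA_E and 0.2385% in PLA_A. On the second side it was 0.4828%, 0.1957%, 0.2774%, 0.4554% and 0.2393% in the same order. Without TMM factors the differences from CIA_B on both sides thus lay closer together in every group, though still apart in PLA_E. Each of these differences is 1 library against 1, so there is no replicate check. With the division as a term in the fit, chosen after seeing the data, edgeR gave miR-99b-5p -1.52 in MS_E against CIA_B with an adjusted p of 0.176. It called miR-99b-5p also in PLA_A (-1.38) and miR-100-5p in MS_E (-1.22), MS_A (-1.17) and PLA_A (-1.29), with adjusted p-values of 0.296 to 0.848 by edgeR. The part of tissue make-up in these differences was not tested.

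**Figure D3:**
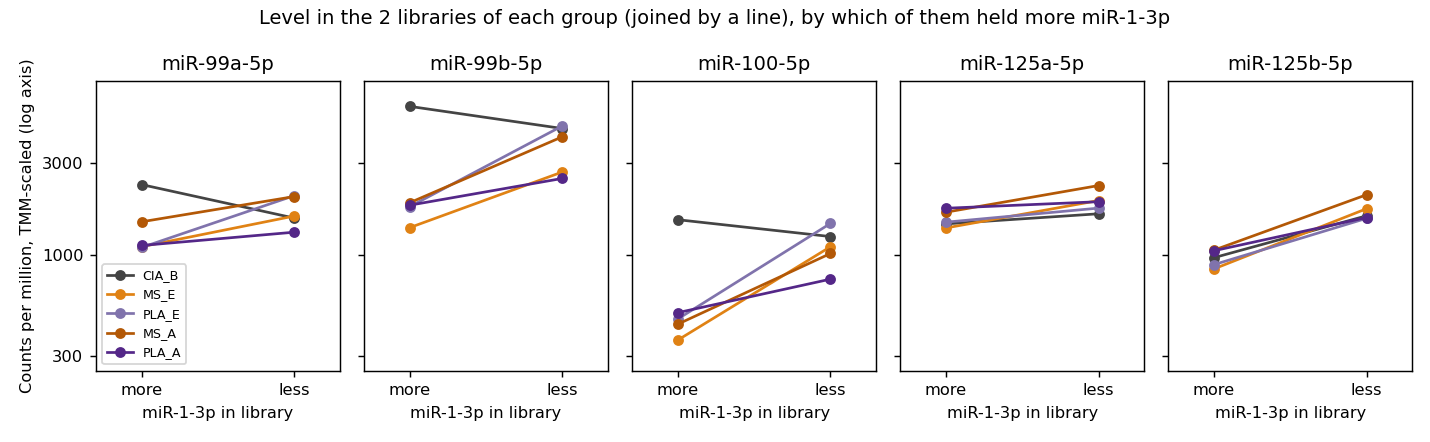
Level of each miRNA in cpm on a log axis in the 2 libraries of each group, joined by a line, ordered by whether the library held more or less miR-1-3p. Lines of the 4 groups after therapy rise to the right in every panel, while those of CIA_B fall for the 3 miR-99/100 members.

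A ratio of 2 miRNAs within a library needs no scaling, and its SD over the 10 libraries says how closely the pair kept a fixed proportion. These values are descriptions and share the libraries. miR-99b-5p was 3.88 and 3.64 times miR-100-5p in CIA_B, 2.44 and 3.83 times in MS_E, and 3.83 and 3.21 times in PLA_E. At 34 days it was 4.04 and 4.27 times in MS_A and 3.62 and 3.34 times in PLA_A. Except for MS_E replicate 1, the ratio thus stayed between 3.21 and 4.27 while the level of each miRNA moved more than 4-fold. The SD of the log2 ratio was 0.23, the smallest that either had with any of the 358 other miRNAs, whose median was 0.97 for miR-99b-5p and 1.03 for miR-100-5p. Without MS_E replicate 1 it was 0.13.

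The members of one cluster behaved otherwise. miR-125a-5p and let-7e-5p, neighbours in the cluster of chromosome 1, kept their proportion with an SD of 0.15, also the smallest of 358 for miR-125a-5p. The ratio lay between 4.04 and 5.44 in all libraries. miR-99b-5p, from the same 696 bases, did not keep its own to either. Its log2 ratio to miR-125a-5p was 2.03 and 1.47 in CIA_B, 0.49 and 0.01 in MS_E, and 0.27 and 1.42 in PLA_E. At 34 days it was 0.84 and 0.16 in MS_A and 0.05 and 0.40 in PLA_A. All 8 libraries after therapy thus lay below both CIA_B libraries, although PLA_E replicate 2 was only 0.05 below the nearer one (1.42 against 1.47). Of the other miRNAs, 3.35% had a ratio to miR-125a-5p that was lower in all 8. The SD of this ratio was 0.70, which ranked 190 of 358 from miR-125a-5p and 75 of 358 from miR-99b-5p.

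**Figure D4:**
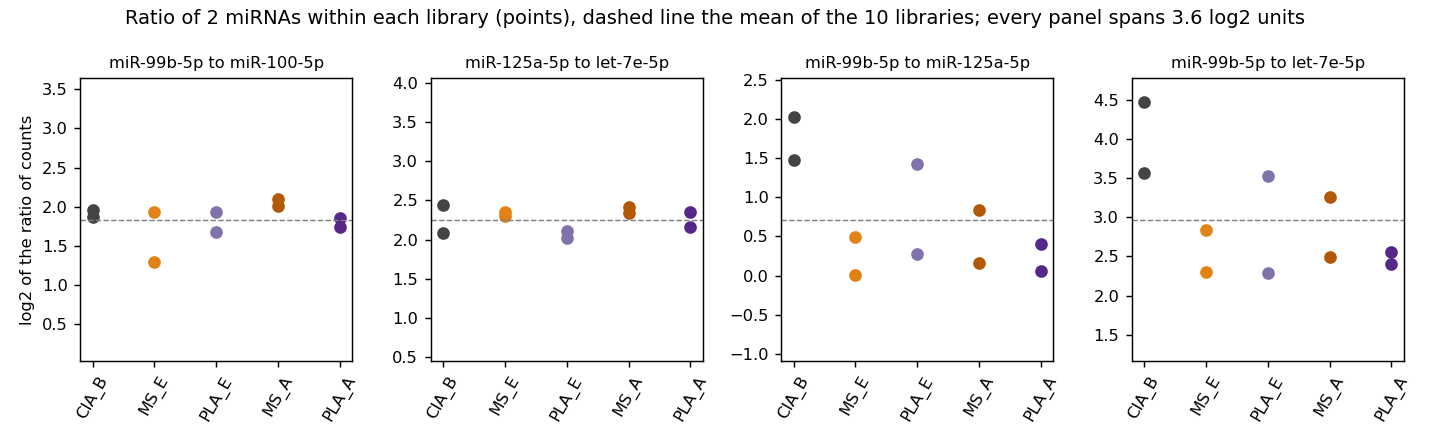
Log2 ratio of counts of 4 pairs of miRNAs in each library (points) by group, with the mean of the 10 libraries as a dashed line and panels of equal height. The pairs miR-99b-5p to miR-100-5p (SD 0.23) and miR-125a-5p to let-7e-5p (SD 0.15) stay close to their mean, whereas both ratios that set miR-99b-5p against its cluster neighbours are highest in CIA_B.

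The log2 ratio of miR-99b-5p to let-7e-5p was 4.47 and 3.56 in CIA_B and 2.28 to 3.53 after therapy, the highest of these being PLA_E replicate 2, with 3.63% of miRNAs lower in all 8 libraries. In the cluster of chromosome 8, the log2 ratio of miR-100-5p to let-7a-5p was -1.71 and -1.89 in CIA_B and from -3.73 to -1.99 after therapy. All 8 were below both CIA_B libraries, as were the ratios to let-7a-5p of 1.68% of miRNAs, but let-7a-5p also comes from other hairpins. Within the miR-99/100 family, miR-99a-5p was higher relative to miR-99b-5p after therapy, from log2 ratios of -1.55 and -1.35 in CIA_B to between -1.20 and -0.33. That too was so in all 8 libraries, but 20.7% of miRNAs were higher relative to miR-99b-5p in all 8. The ratio of miR-125a-5p to miR-125b-5p had an SD of 0.29, ranking 19 of 358 from the first and 4 of 358 from the second.

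By the same measure the miRNAs most like each member were found among all tested. For miR-99b-5p they were miR-100-5p, miR-181d-5p (SD 0.34) and miR-99a-5p (0.41). For miR-100-5p they were miR-99b-5p, miR-532-5p (0.35) and miR-143-3p (0.42), the last an abundant miRNA of smooth muscle. For miR-125a-5p they were let-7e-5p, miR-103-3p (0.20) and let-7e-3p (0.21). miR-125b-5p was nearest to miR-181a-5p (0.23), miR-103-3p (0.24) and miR-1839-5p (0.27), and miR-99a-5p to miR-151-5p (0.26), miR-664-3p (0.27) and miR-145-3p (0.29). So neither miR-99a-5p nor miR-125b-5p had its cluster partner among its nearest 3, and the SD of their ratio to each other was 0.43 (0.26 without CIA_B replicate 1).

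**Figure D5:**
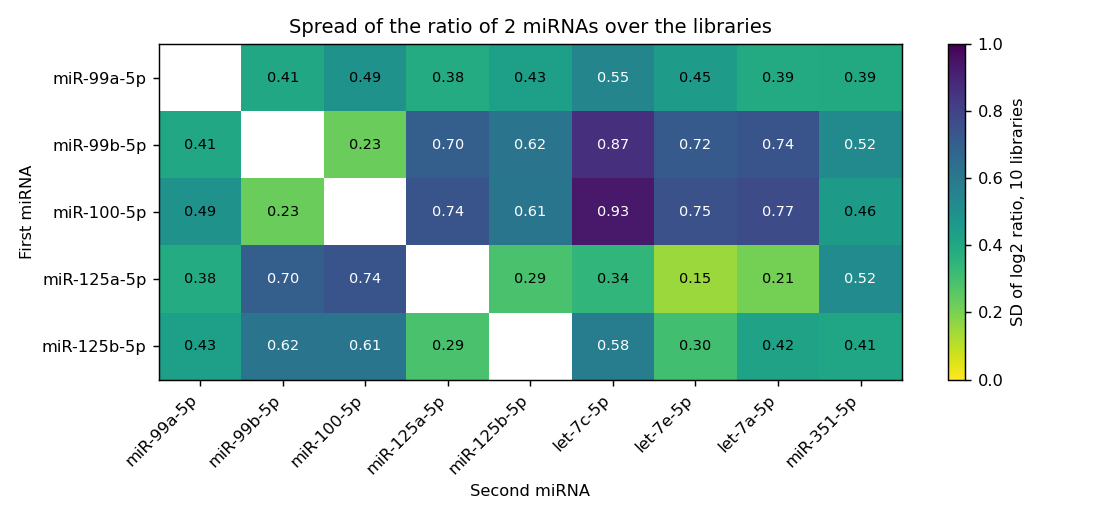
SD over the 10 libraries of the log2 ratio of 2 miRNAs, for the 5 members (rows) against the members, the let-7 miRNAs of their clusters and miR-351-5p (columns); lighter means a steadier proportion. The smallest values are 0.15 for miR-125a-5p with let-7e-5p and 0.21 for miR-125a-5p with let-7a-5p, followed by 0.23 for miR-99b-5p with miR-100-5p.

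The related list holds 14 miRNAs, namely the opposite arms of the same hairpins, the let-7 miRNAs of the 3 clusters, let-7c-2-3p from the let-7c hairpin outside them on chromosome 7, and miR-351-5p, which has the miR-125 seed. Of these 13 were tested, and let-7a-2-3p, with 0 to 4 reads, was not. In the 4 comparisons with CIA_B, 0, 0, 0 and 1 of the 13 were called by edgeR in MS_E, MS_A, PLA_E and PLA_A. The call was let-7c-1-3p, lower in PLA_A with a log2 fold change of -1.41 and an adjusted p of 0.543 by edgeR, on 2 to 20 reads in a library. None was called between stimulation and placebo. The 3 main let-7 arms ranged from 3212 to 4609 cpm for let-7c-5p, 4607 to 6364 cpm for let-7a-5p and 266 to 428 cpm for let-7e-5p, and their log2 fold changes against CIA_B lay between 0.01 and 0.24 in all 4 comparisons.

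Among the opposite arms, miR-99b-3p had 3 to 58 reads in a library, miR-125a-3p 3 to 41 and miR-100-3p 0 to 18, too few to show whether they follow their guide arms. miR-99a-3p had 35 to 356 reads, or 15.6 to 52.4 cpm, and let-7c-2-3p measured 35.0 to 65.0 cpm. The passenger arms of the 2 miR-125b hairpins differ in sequence and so tell the hairpins apart. miR-125b-2-3p, from chromosome 11, measured 285 to 761 cpm, near the member miR-100-5p in MS_A replicate 2 (430 against 437 cpm), and miR-125b-1-3p, from chromosome 8, 11.9 to 42.5 cpm. Their log2 ratio was between 3.46 and 5.09 in all libraries, with 4.31 and 4.05 in CIA_B. Neither was called in any comparison. miR-351-5p measured from 211 to 787 cpm, and its largest log2 fold change against CIA_B was -0.54 ± 0.63 in PLA_A.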

How the data were processed

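The data are small RNA libraries prepared with the TruSeq kit and sequenced on an Illumina HiSeq. The authors demultiplexed reads with CASAVA 1.8, trimmed adapters, discarded reads shorter than 18 bases, aligned them to rn4 and the rat sequences of miRBase and quantified miRNAs with miRDeep2. The deposited values are raw read counts per miRNA. Since hairpins with the same mature sequence share reads, for the 35 mature miRNAs with several rows the largest count was taken, and the sum was an alternative. Another deposited table, whose 20 value columns match no label, was left out. Sequences and coordinates are on GRCr8, not the build of the alignment, and 645 of the 693 miRNAs of that table are in the files.

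The deposited counts were scaled by TMM and tested by quasi-likelihood in edgeR 4.0.16 (R 4.3.3), for the 359 miRNAs that reached 1 cpm in 5 or more of the 10 libraries, with a mean per group and a prior count of 2. Benjamini-Hochberg adjustment covered all 359. Ratios were computed with 1 count added. The thresholds are those of the study, whose own test was limma-voom. With 2 libraries against 2 an exact permutation test cannot go below p = 0.333, so none was made. Library totals give the depth, and the test was checked on simulated data. Alternatives were limma-voom (limma 3.58.1), DESeq2 1.42.0, other scalings and filters, a fit of only 4 libraries, a block for replicate number, and each library left out in turn. The division of libraries by miR-1-3p was added after seeing the data. The members, the related list and the marker lists were chosen with earlier results of these data known. The text names the 5 members, the 14 related miRNAs and the 3 with the steadiest ratio to each member, and 3 muscle miRNAs that describe the division of libraries. Over all libraries, fibroblast and mesenchyme miRNAs summed to 1417 to 3494 cpm and endothelial to 4274 to 14716 cpm. Python 3.11.15 with pandas 2.3.3, numpy 2.4.6 and matplotlib 3.10.9 made the tables and figures.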

Additional observations from a re-analysis of the deposited data

How the results depend on the processing

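The members had at least 1118 reads in every library, so counting error was small, and each group held 2 libraries. In fits that left a group with 1 library, that library was assumed to vary like the other groups. No member had an adjusted p under 0.05 against CIA_B under any alternative. The number of members called was 0 in MS_E against CIA_B by edgeR but 1 with limma-voom or DESeq2 on all 10 libraries, with library size only and with no filter, 2 with the library division as a term, and 0 to 2 with each library left out. In MS_A it was 1 with the division as a term. In PLA_A against CIA_B it was 1 with DESeq2 and with a mean of at least 100 counts, 2 with limma-voom on 4 libraries and with the division as a term, and 0 to 1 with each library left out. For all libraries after therapy it was 1, but 0 with library size only, 2 with the division as a term and 0 to 2 with each library left out. Over the 5 groups 1 member passed with the division as a term, against 0. No other count of members changed, apart from that with the replicate number as a block, given last. The cause of these changes was not tested.

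Counts over all miRNAs moved as follows. In MS_E against CIA_B 23 were called, 38 with no filter, 13 with limma-voom on 4 libraries and 41 with the division as a term. In MS_A against CIA_B 4 were called, 2 with library size only or a mean of at least 100 counts, 12 with edgeR and 10 with limma-voom on 4 libraries, 10 with the division as a term, and 1 to 7 with each library left out. In PLA_E against CIA_B 2 were called, 5 with DESeq2 or limma-voom on 4 libraries, 4 with library size only, 6 with edgeR on 4 libraries, 9 with the division as a term, and 1 to 10 with each library left out. In PLA_A against CIA_B 25 were called, 13 with a mean of at least 100 counts, 47 with the division as a term, and 9 to 30 with each library left out. In MS_E against PLA_E 14 were called, 9 with limma-voom on all and 2 on 4 libraries, 29 with no filter, 8 with a mean of at least 100 counts, 22 with the division as a term, and 7 to 37 with each library left out. In MS_A against PLA_A 7 were called, 1 with limma-voom, 2 with a mean of at least 100 counts, 14 with the division as a term, and 2 to 13 with each library left out. After therapy against CIA_B 15 were called, 9 with library size only, 7 with a mean of at least 100 counts, and 4 to 22 with each library left out. Over the 5 groups 15 passed, 3 with limma-voom, 29 with DESeq2, 31 with no filter, 37 with the division as a term, and 7 to 25 with each library left out. In the interaction 12 were called, 4 with limma-voom, 7 with library size only or a mean of at least 100 counts, and 3 to 17 with each library left out.

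Library size only moved the median log2 fold change of all miRNAs by 0.36 in PLA_E and 0.29 in PLA_A against CIA_B, by 0.17 for all libraries after therapy, by -0.25 in MS_E against PLA_E and by -0.30 in MS_A against PLA_A. With it miR-99a-5p had 0.041 and miR-125b-5p 0.18 in PLA_E, both with the other sign. In MS_E miR-125b-5p changed sign to -0.076 with library size only, -0.054 with limma-voom, -0.022 with DESeq2 and with its size factors, -0.0073 with limma-voom on 4 libraries and -0.032 with the division as a term. In PLA_A it had -0.072 with DESeq2 and with its size factors and -0.088 with a mean of at least 100 counts, and after therapy -0.0044 and -0.0043 with DESeq2 and its size factors.

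Leaving out each library changed the sign of these log2 fold changes against CIA_B. miR-125a-5p ran from -0.23 to 0.31 in MS_E and from -0.094 to 0.18 in PLA_E. miR-125b-5p ran from -0.68 to 0.44 in MS_E, -0.26 to 0.68 in MS_A, -0.53 to 0.33 in PLA_E, -0.40 to 0.43 in PLA_A and -0.33 to 0.47 for all after therapy. miR-99a-5p ran from -0.41 to 0.072 in MS_A and from -0.79 to 0.069 in PLA_E, and miR-100-5p from -1.55 to 0.074 in PLA_E. miR-99b-5p ran from -1.27 to 0.22 in MS_E against PLA_E and from -0.17 to 0.83 in MS_A against PLA_A, and against CIA_B it stayed below 0 in all 103 alternative values. Summed counts count the shared reads of miR-125b-5p at both of its 2 hairpins. They moved the mean log2 ratio to miR-125b-5p from 0.42 to -0.58 for miR-125a-5p, from 0.25 to -0.75 for miR-99a-5p and from -0.70 to -1.70 for miR-100-5p. The SD of the log2 ratio was 0.13 to 0.24 for miR-99b-5p to miR-100-5p, 0.26 to 0.46 for miR-99a-5p to miR-125b-5p and 0.41 to 0.65 for miR-100-5p to miR-125b-5p with each library left out.

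Replicate numbers did not pair the libraries: deviations of same-numbered libraries from their group means correlated at -0.55 to 0.63 over 10 pairs of groups. With the replicate number as a block, miR-99b-5p had -1.03 for all libraries after therapy and was not called, so 0 members were called there, and the calls over all miRNAs were 1 in PLA_E against CIA_B, 4 in MS_A against PLA_A, 7 in the interaction and 9 over the 5 groups.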
